A study of Mus musculus with 2 samples.

Results

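Collagens and stromal matrix proteins form the connective tissue scaffold of the mammary gland, and 38 genes for them were followed through the first day of involution, when the gland regresses after weaning. They were taken by name from the 18193 genes with a single symbol on the array: 24 genes whose symbol starts with Col, 1 digit, the letter a and a digit (collagen types I to IX), and 14 of 15 listed genes for other matrix proteins, a collagen crosslinking enzyme and stromal cell surface proteins. Fbn1, the listed 15th gene, was not analysed here. Female CD1 mice, bought at 6 weeks of age and mated with CD1 males, nursed litters of 6 pups until the pups were removed at day 10 of lactation. Glands were taken 1 day later (day 1 of involution) and at the time of weaning (day 0 of involution). For each day, RNA of 5 mice was pooled and read on 1 Affymetrix array of the Mouse Genome 430 type, which gives 1 array of day 1 to set against 1 of day 0. The spread between mice cannot be seen, no difference below has a replicate check, and no test was possible.

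Fibrillar collagens assemble into the cables that give connective tissue its tensile strength, and type IV collagen forms the sheet-like network of basement membranes under the epithelium and around vessels, fat cells and myoepithelial cells. Their chains are modified in the endoplasmic reticulum, wound into triple helices, secreted, trimmed and crosslinked. Small proteoglycans such as decorin and biglycan bind the fibrils, and fibronectin, periostin and SPARC connect matrix and cells. In the mammary gland, this scaffold surrounds secretory alveoli during lactation and is rebuilt as they collapse in involution.

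Values are probe set signals on a linear scale from the Affymetrix Microarray Suite 5.0, with both arrays scaled to a trimmed mean of 250. A gene is represented by its brightest probe set. Signals under 77.7, the median over both arrays without control probe sets, were set to this floor before a ratio was taken, and only genes with at least 1 array over it count as measured. Where the dimmer array lay under the floor, the ratio is a bound and its size is given with "at least". Of the 38 genes, 35 were measured, 29 of them over the floor on both days. Col6a5, Col8a2 and Col9a2 were not measured. Just outside the limit, the brighter signal of Col6a5 was 59.4, and just inside it, that of Col9a3 was 80.3. Because RNA came from whole glands, a change in the number of stromal cells and a change in RNA per cell cannot be told apart.

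The array of day 1 differed from that of day 0 in several respects that touch each ratio. Its median signal was 60.1, against 94.2 on day 0, and the median log2 ratio (day 1 over day 0) of 15 probe sets for added bacterial control transcripts was -1.16. Over all 13239 measured genes, the median log2 ratio was -0.12. Beta-actin control probe sets at the 3' end exceeded those at the 5' end 1.51-fold in the pool of day 1, and 2.50-fold in that of day 0, while the same ratio for Gapdh was 1.48 on day 1 and 1.52 on day 0. Their part in the ratios of matrix genes was not tested.

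Of the 35 measured genes, 8 (22.9%) were at least 2-fold higher on day 1, 1 was at least 2-fold lower and 26 did not reach this limit. Of the 26, the ratios of Col2a1, Col4a3, Col4a4, Col6a4 and Col9a3 are bounds, so a larger difference is possible. The background over all measured genes was 10.4% in the higher and 13.3% in the lower direction. The 8 were the basement membrane collagen genes Col4a5 and Col4a1, the short-chain collagen gene Col8a1, and Thy1, Mgp, Pdgfrb, Fstl1 and Lox, and the lower gene was Col9a1. At a limit of 1.5-fold, 12 were higher and 1 lower, against 20.4% and 27.2% of all measured genes. At 3-fold, 2 were higher (Col4a5 and Col8a1) and 1 lower, against 3.85% and 4.33%. The median log2 ratio of the 35 genes was 0.31. Over the 29 genes above the floor on both arrays it was 0.45, against 0.03 over the 9768 genes of the whole array that were above the floor on both.

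**Figure D1:**
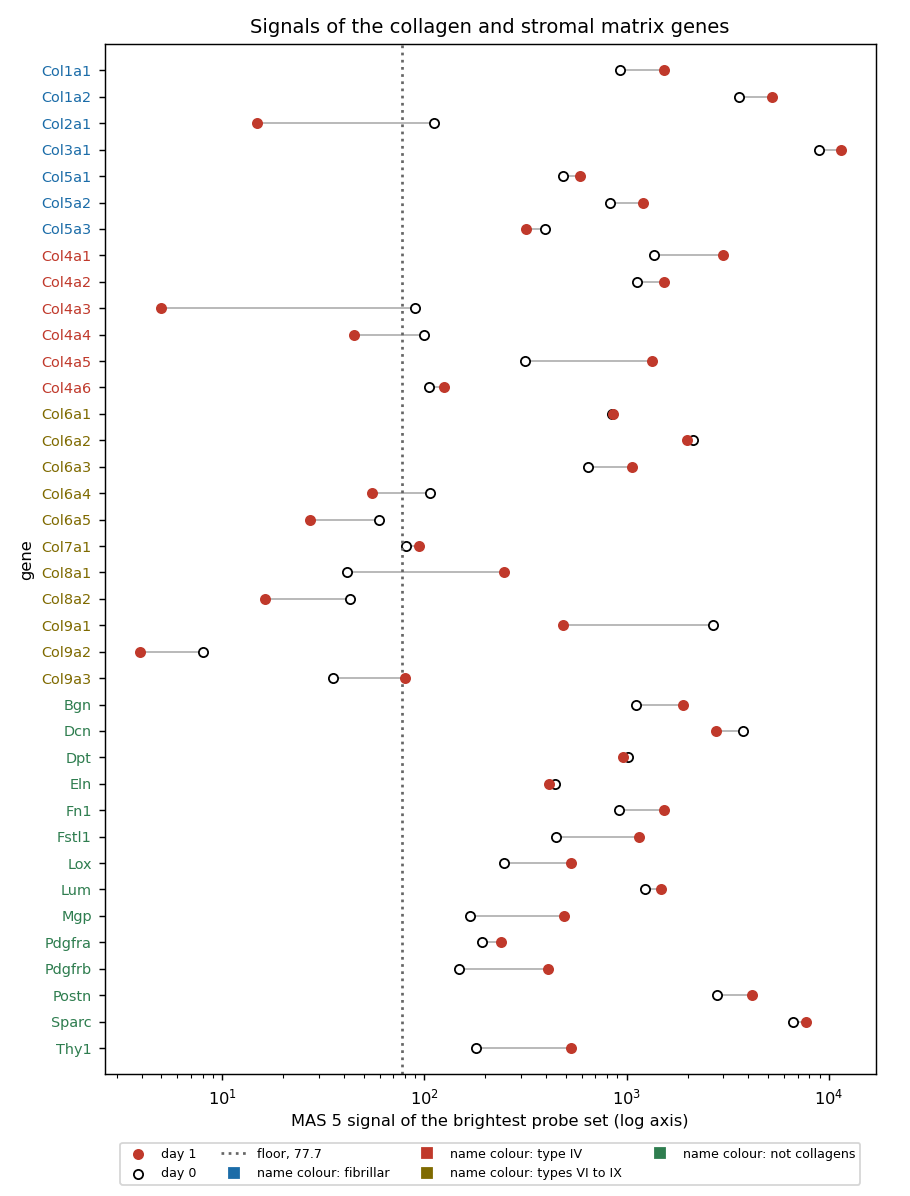
Signal of the brightest probe set of each of the 38 genes on day 1 (filled) and day 0 (open), on a log axis, 1 array of 5 pooled mice per day, with the floor of 77.7 as a dotted line and the colour of each name showing its family. Col9a1 has its filled point far to the left of its open point, and Col4a5, Thy1, Mgp and Pdgfrb have theirs to the right.

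Most fibrillar collagens were somewhat higher on day 1, by less than 2-fold. Of the 7 measured genes, which encode chains of types I, II, III and V, 0 were called 2-fold in either direction, with Col2a1 known only as a bound. Over all measured genes, 10.4% were called higher and 13.3% lower. Col1a1, Col1a2, Col3a1 and Col5a2 passed 2-fold after median centring, with log2 ratios from 1.01 to 1.36, and with Col5a1 under hybridisation control scaling, with 1.45 to 1.88. Col5a2 also passed it as the mean of its probe sets (1.19). Col1a1, which encodes a chain of type I collagen, the main fibril protein of connective tissue, had a signal of 1528.6 on day 1 and 930.5 on day 0, a log2 ratio of 0.72. Its other probe set pointed slightly the other way, with 860.4 on day 1 and 949.8 on day 0 (-0.14). Col1a2, its partner chain in the type I helix, had signals of 5238.3 on day 1 and 3595.1 on day 0 (0.54), and its other probe set above the floor gave a log2 ratio of 0.63. The ratios of the partners thus lay 0.17 apart, less than the 0.86 that separated the probe sets of Col1a1.

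Col3a1, which encodes the type III collagen of pliable tissues, had signals of 11434.6 on day 1 and 8904.3 on day 0. Both of its probe sets were higher on day 1, with log2 ratios of 0.36 and 0.63. Type V collagen sits in the core of type I fibrils and limits their diameter. Its chain genes Col5a1 and Col5a2 had log2 ratios of 0.29 and 0.54, whereas Col5a3 had a signal of 319.3 on day 1 and 396.2 on day 0 (-0.31). The 3 probe sets of Col5a1 lay between 0.13 and 0.31. Those of Col5a2 spread more widely than in any other gene followed here with several probe sets over the floor on both days: the dimmer one, with 305.5 on day 1 and 85.3 on day 0, had a log2 ratio of 1.84. Col2a1, the cartilage collagen gene, was above the floor only on day 0, with 14.8 on day 1 and 110.9 on day 0. Its log2 ratio was -2.31 with a floor at the 25th percentile and -2.04 with a pseudocount of 16 and no floor.

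As a family the fibrillar genes had a median log2 ratio of 0.36, above the -0.12 of all measured genes. The median was above 0 in each of the 9 other settings tried, scalings included, with values from 0.29 to 1.52. Relative to the median of all genes, which moves with the scaling, it lay between 0.38 and 0.72 higher. Whether the absolute signal of a single fibrillar gene was higher depends on the scaling in the case of Col5a3, which was above 0 after median centring and hybridisation control scaling, with log2 ratios of 0.34 and 0.85.

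Within type IV collagen the chains differed. Col4a5 had the highest log2 ratio of the 29 genes above the floor on both days, and 98.2% of all measured genes had a lower one. Col8a1, a bound in the main setting, had a higher ratio than Col4a5 in some other settings. With a floor at the 25th percentile it was 2.57 for Col8a1 against 2.08 for Col4a5. A pseudocount of 16 with no floor gave 2.20 against 2.02, and loess 1.99 against 1.96. The signal of Col4a5 was 1330.2 on day 1 and 315.7 on day 0, 4.21-fold higher. Its second probe set had 343.5 on day 1 and 104.2 on day 0, a log2 ratio of 1.72. Both probe sets of Col4a5 were above the floor on both days and more than 3-fold higher on day 1. Col4a1, which with Col4a2 makes the network present in nearly all basement membranes, had a signal of 2991.2 on day 1 and 1362.2 on day 0, 2.20-fold higher. Its other probe set had a log2 ratio of 0.55. Col4a2 had signals of 1532.0 on day 1 and 1119.1 on day 0, a log2 ratio of 0.45.

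The remaining type IV chains were near the floor. Col4a6, whose chain joins that of Col4a5 in some basement membranes, had a signal of 125.3 on day 1 and 105.4 on day 0 (0.25). Col4a3 and Col4a4, known best from the filter of the kidney, were above the floor only on day 0, with 5.0 on day 1 and 90.1 on day 0 for Col4a3, and 44.8 on day 1 and 99 on day 0 for Col4a4. With a floor at the 25th percentile, the log2 ratio of Col4a3 was -2.01 and that of Col4a4 -1.14. The median of the 6 type IV genes was 0.35. Of the 6, 2 reached 2-fold higher and 0 lower, against 10.4% and 13.3% of all measured genes. That median includes the bounds of Col4a3 and Col4a4, and with a floor at the 75th percentile, which left 3 genes, it was 1.13.

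The genes for type IV collagen lie in head-to-head pairs, with the genes of a pair read in opposite directions. Within the 2 pairs with signal above the floor, the brightest probe sets differed. Col4a5 exceeded Col4a6 by 1.83 log2, with Col4a6 near the floor. A second probe set of Col4a6 was below the floor on both days, with 76.8 on day 1 and 8.2 on day 0. The log2 ratio of Col4a6 was 0.69 after quantile normalization and 0.70 after loess, against 2.00 and 1.96 for Col4a5. Col4a1 exceeded Col4a2 by 0.68, but its second probe set, at 0.55, lay close to the 0.45 of Col4a2. These differences are between probe sets of the same arrays and are not altered by a uniform scaling while both genes stay above the floor. Promoter windows of 300 bases (250 before to 50 after the transcript start) from RefSeq, build GRCm38.p6, are shown for these pairs because they are where the genes of a pair meet. The table held windows for 25 of the 38 genes. The window of Col4a1 is chr8:11312777-11313076 on the minus strand and that of Col4a2 is chr8:11312555-11312854 on the plus strand, so they share 78 bases. Those of Col4a5, chrX:141475169-141475468 on the plus strand, and Col4a6, chrX:141474027-141474326 on the minus strand, are separated by 842 bases. Sequences run 5' to 3' on each gene's own strand, and capitals mark CCAAT and GGGCGG on either strand (on the other strand ATTGG for CCAAT, and CCGCCC for GGGCGG).
Col4a1: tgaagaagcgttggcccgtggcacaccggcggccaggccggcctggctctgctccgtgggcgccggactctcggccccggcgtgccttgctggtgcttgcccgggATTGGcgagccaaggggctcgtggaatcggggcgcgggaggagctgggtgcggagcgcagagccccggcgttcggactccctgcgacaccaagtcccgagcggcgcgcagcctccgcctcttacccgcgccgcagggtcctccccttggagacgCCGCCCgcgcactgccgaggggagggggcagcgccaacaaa
Col4a2: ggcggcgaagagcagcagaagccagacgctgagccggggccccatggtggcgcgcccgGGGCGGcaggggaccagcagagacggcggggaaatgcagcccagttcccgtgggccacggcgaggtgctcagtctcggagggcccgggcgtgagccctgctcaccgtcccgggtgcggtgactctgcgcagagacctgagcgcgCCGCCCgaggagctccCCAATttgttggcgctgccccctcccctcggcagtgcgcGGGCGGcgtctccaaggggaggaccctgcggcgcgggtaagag
Col4a5: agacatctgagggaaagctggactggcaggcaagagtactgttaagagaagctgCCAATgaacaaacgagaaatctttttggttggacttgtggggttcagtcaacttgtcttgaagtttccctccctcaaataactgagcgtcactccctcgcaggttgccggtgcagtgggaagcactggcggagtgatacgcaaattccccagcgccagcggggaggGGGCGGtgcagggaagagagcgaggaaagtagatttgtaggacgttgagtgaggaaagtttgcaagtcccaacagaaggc
Col4a6: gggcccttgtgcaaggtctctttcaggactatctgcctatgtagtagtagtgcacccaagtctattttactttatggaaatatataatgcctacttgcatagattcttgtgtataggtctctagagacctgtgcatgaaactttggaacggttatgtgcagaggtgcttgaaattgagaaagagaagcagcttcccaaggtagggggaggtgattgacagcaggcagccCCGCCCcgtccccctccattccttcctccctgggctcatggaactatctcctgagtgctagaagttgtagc

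The CCAAT letters were present once in the windows of Col4a1, Col4a2 and Col4a5 and were not found in that of Col4a6. GGGCGG was present 3 times in the window of Col4a2 and 1 time in each of the other windows. The site in the window of Col4a1 lies in the bases shared with Col4a2 and is also counted among the 3 there. The further motifs, TATAAA (reading TTTATA on the other strand) and TGAGTCA (reading TGACTCA there), the second a site for AP-1 factors, were not found in these 4 windows. Of all 32851 promoter windows of this length, 37.4% held CCAAT, 35.7% GGGCGG, 13.6% TATAAA and 5.2% TGAGTCA, on either strand. Of the 28 windows of the genes followed here, 9, 17, 3 and 1 held them. GC bases made up 74.0% of the window of Col4a1 and 73.7% of that of Col4a2, but 52.7% of that of Col4a5 and 48.3% of that of Col4a6. Across all windows the median was 52.7%.

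**Figure D2:**
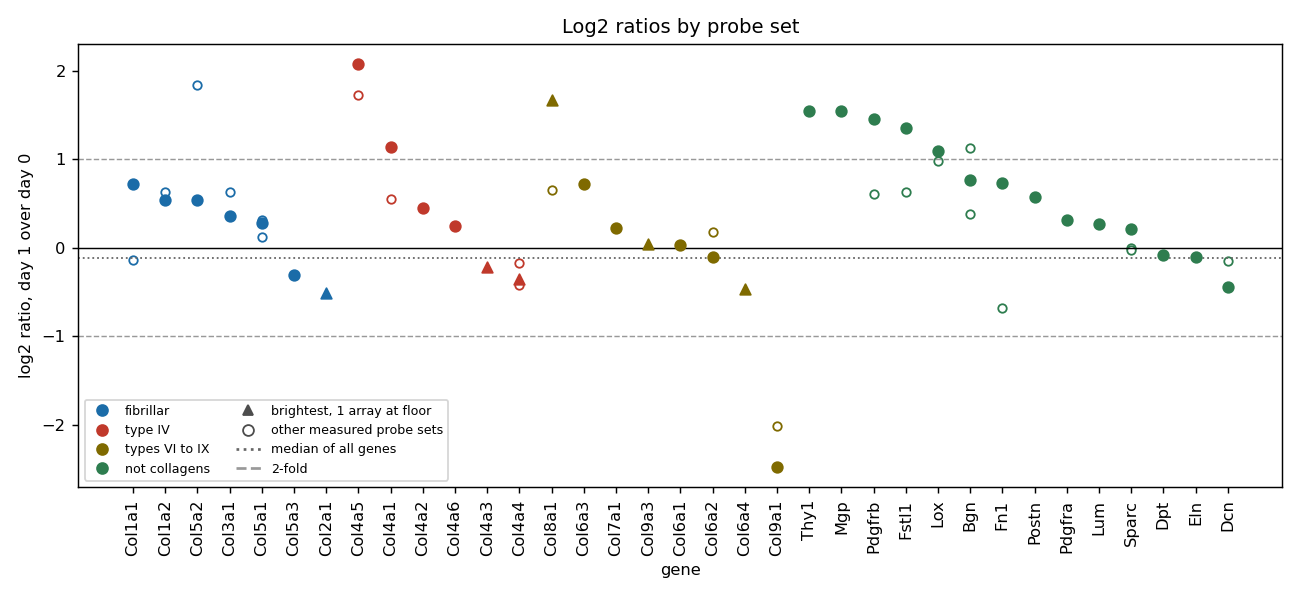
Log2 ratio (day 1 over day 0) of each measured probe set of the 35 measured genes, by family and in order of the brightest probe set (filled), with the other measured probe sets open and triangles where 1 array was at the floor. Col4a5 and Col9a1 have all their points beyond the dashed 2-fold lines, whereas the points of Col1a1, Col6a2, Sparc and Fn1 lie on both sides of 0.

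Col9a1 stood at the other end. It encodes a chain of type IX collagen, a collagen best known from the surface of cartilage fibrils. Its signal was 483.9 on day 1 and 2686.7 on day 0, 5.55-fold lower, and only 0.85% of measured genes had a lower ratio. The second probe set gave 190.2 on day 1 and 764.6 on day 0, a log2 ratio of -2.01, so both were at least 4-fold lower. Of the chains that join it in type IX collagen, Col9a2 was not measured, and Col9a3 was above the floor only on day 1, with a signal of 80.3, against 35.4 on day 0. Col9a1 was also at least 2-fold lower in each of the 9 other settings, with log2 ratios from -2.62 to -1.31, the last under hybridisation control scaling.

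RefSeq gives Col9a1 2 promoter windows, shown because this was the gene called lower and may be read from either start. The upstream window is chr1:24177360-24177659 and the downstream one chr1:24194953-24195252, both on the plus strand of GRCm38.p6. The array values are not assigned to a start here. Capitals mark the same motifs as above.
Col9a1 upstream: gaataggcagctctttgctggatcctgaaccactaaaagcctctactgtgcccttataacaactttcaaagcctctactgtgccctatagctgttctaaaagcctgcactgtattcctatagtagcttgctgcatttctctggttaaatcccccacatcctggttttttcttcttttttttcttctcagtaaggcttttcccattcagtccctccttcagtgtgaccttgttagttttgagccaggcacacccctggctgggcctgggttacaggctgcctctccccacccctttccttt
Col9a1 downstream: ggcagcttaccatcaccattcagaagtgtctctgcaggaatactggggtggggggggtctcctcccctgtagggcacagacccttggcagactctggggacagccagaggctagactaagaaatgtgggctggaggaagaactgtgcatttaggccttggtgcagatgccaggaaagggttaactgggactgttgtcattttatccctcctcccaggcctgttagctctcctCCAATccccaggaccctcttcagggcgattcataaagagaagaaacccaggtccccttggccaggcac

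The upstream window held none of the 4 motifs, and the downstream one held CCAAT 1 time, with its first base 18 bases before the start. Neither window held the GC-rich letters GGGCGG, which 17 of the 28 windows of the genes followed and 35.7% of all windows held. A link between a motif and the direction of a gene was not tested.

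The other collagens, of types VI, VII and VIII, differed in direction. Type VI collagen forms beaded filaments near basement membranes from the chains of Col6a1, Col6a2 and Col6a3. Col6a3 had a signal of 1067.7 on day 1 and 647.4 on day 0 (0.72), but Col6a1 had 857.8 on day 1 and 841.3 on day 0 (0.03) and Col6a2 1978.9 on day 1 and 2127.9 on day 0 (-0.10). The log2 ratio of Col6a2 was 0.54 after median centring and 1.06 under hybridisation control scaling. Col6a3 thus lay 0.69 above Col6a1 and 0.83 above Col6a2, while Col6a1 and Col6a2, which are neighbours in the genome, were 0.13 apart. Col6a4 was above the floor only on day 0, with a signal of 107.1, against 54.9 on day 1.

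Col8a1, a chain of the short-chain network collagen known from vessel walls and the cornea, was above the floor only on day 1. It had a signal of 247.8 on day 1 and 41.6 on day 0, at least 3.19-fold higher. A dimmer probe set was likewise above the floor only on day 1, with 121.9 on day 1 and 9.5 on day 0. Another had 2.0 on day 1 and 54.6 on day 0, below the floor on both. Col7a1, the gene of the anchoring fibrils of skin, had 94.2 on day 1 and 80.6 on day 0, just above the floor. Of the 8 measured genes of types VI to IX, Col8a1 reached 2-fold higher and Col9a1 2-fold lower, against 10.4% and 13.3% of all measured genes. The median log2 ratio of the 8 was 0.04. It was -0.04 with the floor at either the 25th or the 75th percentile, so this family has no settled direction.

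**Figure D3:**
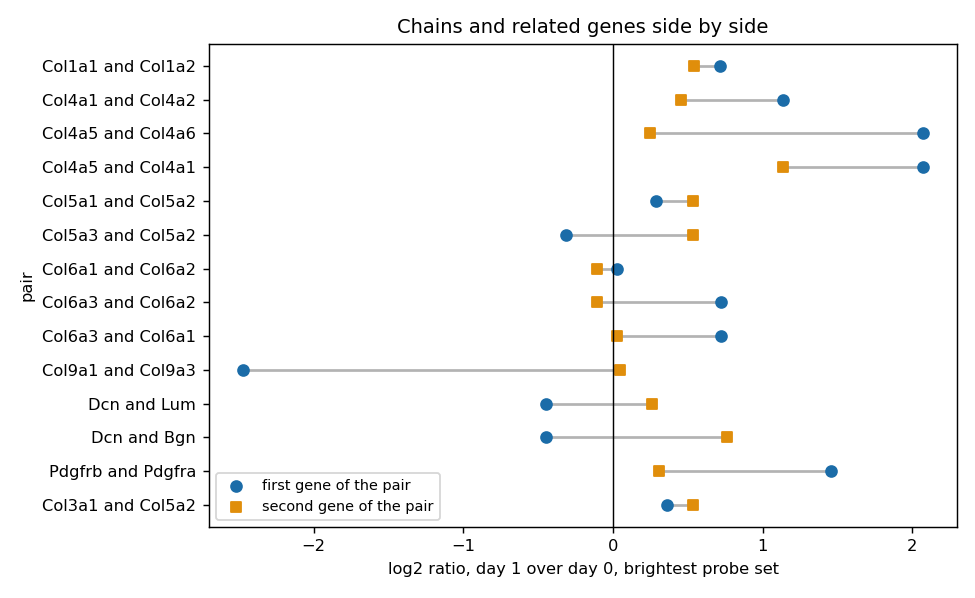
Log2 ratio (day 1 over day 0, brightest probe set) of genes whose chains assemble together or that are closely related, 1 pair per line. The points of Col9a1 and Col9a3 (a bound), Col4a5 and Col4a6, and Pdgfrb and Pdgfra lie more than 1 log2 apart, and those of Col6a1 and Col6a2 nearly coincide.

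Of the genes that are not collagens, which include those of the surface proteins Thy1, Pdgfra and Pdgfrb, 14 of 14 were measured. Of these, 5 (35.7%) were at least 2-fold higher, Thy1 and Pdgfrb among them, and 0 lower. The shares over all measured genes were 10.4% and 13.3%. The median log2 ratio of the 14 genes was 0.66. It was above 0 and above the median of all genes in each of the 9 other settings, between 0.44 and 1.82. Even so the small leucine-rich proteoglycans, which coat collagen fibrils, differed among themselves. Bgn (biglycan) had a signal of 1899.4 on day 1 and 1118.1 on day 0 (0.76), and its 3 probe sets lay between 0.39 and 1.13. Lum (lumican) had 1484.4 on day 1 and 1236.1 on day 0 (0.26). Dcn (decorin) was lower on day 1, with 2773.8, against 3780.9 on day 0 (-0.45), a log2 ratio that was 0.20 after median centring and 0.72 under hybridisation control scaling. Dcn thus lay 1.21 below Bgn and 0.71 below Lum, its neighbour in the genome.

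The crosslinking enzyme and the calcification inhibitor were higher, and elastin was not. Lox, the lysyl oxidase that crosslinks collagen and elastin outside the cell, had a signal of 530.1 on day 1 and 248.6 on day 0, 2.13-fold higher. Its other probe set above the floor gave a log2 ratio of 0.98, and the remaining one was below the floor on both days. Mgp (matrix Gla protein), which binds calcium and holds back mineral deposits, had 489.0 on day 1 and 167.9 on day 0, 2.91-fold higher. Eln, the gene of elastin itself, had 412.8 on day 1 and 442.4 on day 0 (-0.10), with log2 ratios of 0.55 after median centring and 1.06 under hybridisation control scaling.

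Of the glycoproteins, Fstl1 (follistatin-like 1), a secreted relative of SPARC, differed most. It had a signal of 1147.4 on day 1 and 449.3 on day 0, 2.55-fold higher, and 898.4 on day 1 and 579.9 on day 0 at its other probe set (0.63). Postn (periostin), which binds fibronectin and collagen, had 4186.1 on day 1 and 2806.2 on day 0 (0.58). Fn1 (fibronectin) was the only gene of the 35 with disagreeing probe sets, defined as a measured probe set that lies beyond 0 in the other direction by 0.5 log2 or more. The brighter had 1533.3 on day 1 and 919.5 on day 0 (0.74), and the dimmer, below the floor on day 1, had 56.1 on day 1 and 124.3 on day 0. Sparc, a collagen-binding glycoprotein of remodelling tissue, had 7732.8 on day 1 and 6648.1 on day 0 (0.22), and a second probe set had 4133.3 on day 1 and 4145.1 on day 0. Dpt (dermatopontin), which binds decorin, had 963.2 on day 1 and 1018 on day 0 (-0.08), with log2 ratios of 0.57 and 1.08 under the scalings given for Eln.

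The surface proteins of stromal cells were also unequal. Thy1, a surface glycoprotein of fibroblasts and T cells, had 527.8 on day 1 and 180.8 on day 0, 2.92-fold higher. Pdgfrb, the receptor of platelet-derived growth factor known from pericytes, had 407.4 on day 1 and 148.6 on day 0, 2.74-fold higher, and a dimmer probe set was above the floor only on day 1, with 118.6 on day 1 and 30.6 on day 0. Pdgfra, the related receptor known from fibroblasts, had 238.4 on day 1 and 192.4 on day 0 (0.31). The log2 ratios of Pdgfrb and Pdgfra were thus 1.15 apart.

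The spread between probe sets gives the one measure of error within a gene that these arrays allow. Of the genes followed, 13 had more than 1 probe set that exceeded the floor on each day. In these 13, the lowest and highest log2 ratios were a median of 0.35 apart, from 0.08 in Col1a2 to 1.30 in Col5a2. In 8 of the 13 they were less than 0.5 apart. Over 3943 such genes of the whole array, the pooled SD of log2 ratios within a gene was 0.56. For scale, the log2 ratios of Col4a5 (2.08) and Col9a1 (-2.47) are more than 3 times as large. They were picked as the highest and lowest of the genes above the floor on both days. Of the fibrillar genes that were higher, Col1a2 (0.54), Col3a1 (0.36), Col5a1 (0.29) and Col5a2 (0.54) lay under this SD, and Col1a1 (0.72) over it. The ratios of Col4a1 (1.13) and Lox (1.09), both called higher, were nearer to it than those of Col4a5 and Col9a1. This SD describes probe sets of the same arrays and says nothing of the spread between mice or arrays. The multiple is therefore no test of a difference between days.

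Not every call of 2-fold was made in every setting. Col4a5, Col8a1, Lox, Thy1 and Col9a1 kept theirs in each setting that measured them. Median centring and hybridisation control scaling raised the ratios, so they could not remove a call of higher. Thy1 has 1 probe set, so averaging or leaving out probe sets could not alter its ratio. Col4a1 had a log2 ratio of 1.00, just under 2-fold, after quantile normalization and 0.84 as the mean of its probe sets. Fstl1 had 0.99 as the mean of its probe sets, and Mgp and Pdgfrb, whose day 0 signals lie under a floor at the 75th percentile, then had only bounds of at least 0.97 and at least 0.70. Pdgfrb likewise had a bound of at least 0.61 at its dimmer probe set, the one whose name does not mark it as shared between transcripts.

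Collagen genes of type X and above, which the choice by 1 digit leaves out, were less often measured: 9 of 18 were above the floor on at least 1 array. Of these 9, 3 were at least 2-fold higher and 1, Col22a1 (at least 2.38-fold), was lower, against 10.4% and 13.3% of all measured genes. Their median log2 ratio was -0.11. Col12a1 and Col16a1, whose products sit on the surface of fibrils, were above the floor only on day 1 at their brightest probe sets. Col12a1 was at least 4.57-fold higher there, although a second probe set had a log2 ratio of 0.14. That probe set was above the floor on both days, with 95 on day 1 and 86.2 on day 0. For Col16a1 the bound was 4.56-fold. Col27a1, a fibrillar chain, was 2.20-fold higher, from a day 0 signal of 85.7. Col15a1 and Col18a1, which lie in basement membrane zones, had log2 ratios of -0.11 and -0.51, in contrast to Col4a5 and Col4a1.

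The enzymes and chaperones that make collagen differed in direction among themselves. Of 30 listed genes of collagen biosynthesis and crosslinking, 22 were measured. Of these, 2 were at least 2-fold higher and 4 lower, shares near the 10.4% and 13.3% of all measured genes, and the median log2 ratio was -0.19, near the -0.12 of all genes. Lower were Mia3 (3.10-fold), which loads procollagen into transport vesicles, P4hb (2.77-fold), a subunit of prolyl 4-hydroxylase that also serves as a general folding enzyme, and, named after their values were seen, Ppib (-1.17 log2) and Loxl4 (a bound of -1.11). Higher were Colgalt1 (4.08-fold), which attaches galactose to collagen, and, likewise named afterwards, Loxl1 (1.32 log2), a relative of Lox.

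Other matrix genes showed both directions. For the counts here and in the marker lists below, the shares over all measured genes were 10.4% higher and 13.3% lower. Of 7 measured collagen receptors, 1 was higher and 1 lower (median -0.50). Ddr1, an epithelial collagen receptor, was 5.38-fold higher, but its probe sets ranged from -1.20 to 2.43 log2. Itga10 was at least 2.91-fold lower and Lair1 was at -0.80 log2. Of 15 laminins and other basement membrane genes, 2 were higher and 3 lower (median -0.34), with Agrn 4.47-fold higher, Lama1 4.28-fold lower and Lama4 at least 3.28-fold higher at its brightest probe set, while another had a log2 ratio of -0.95. Of 8 further leucine-rich proteoglycans, 0 were higher and 1 lower, Podn (2.73-fold), with a median of -0.50. Epyc, above the floor only on day 0, had a bound of -0.73 log2, and Fmod was at -0.59, with another probe set at 1.89. Of 11 further elastic fibre genes, 1 was higher, Ltbp1 (at least 5.58-fold), and 1 lower, Mfap2 (2.18-fold), with a median of -0.02, and Ltbp3 was at 0.97 log2. Of 12 other glycoproteins and proteoglycans, 3 were higher and 1 lower (median 0.25), and the 3 were Thbs1 (at least 15.6-fold), an activator of TGF-beta, Tnxb (2.35-fold) and Vcan (2.13-fold).

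**Figure D4:**
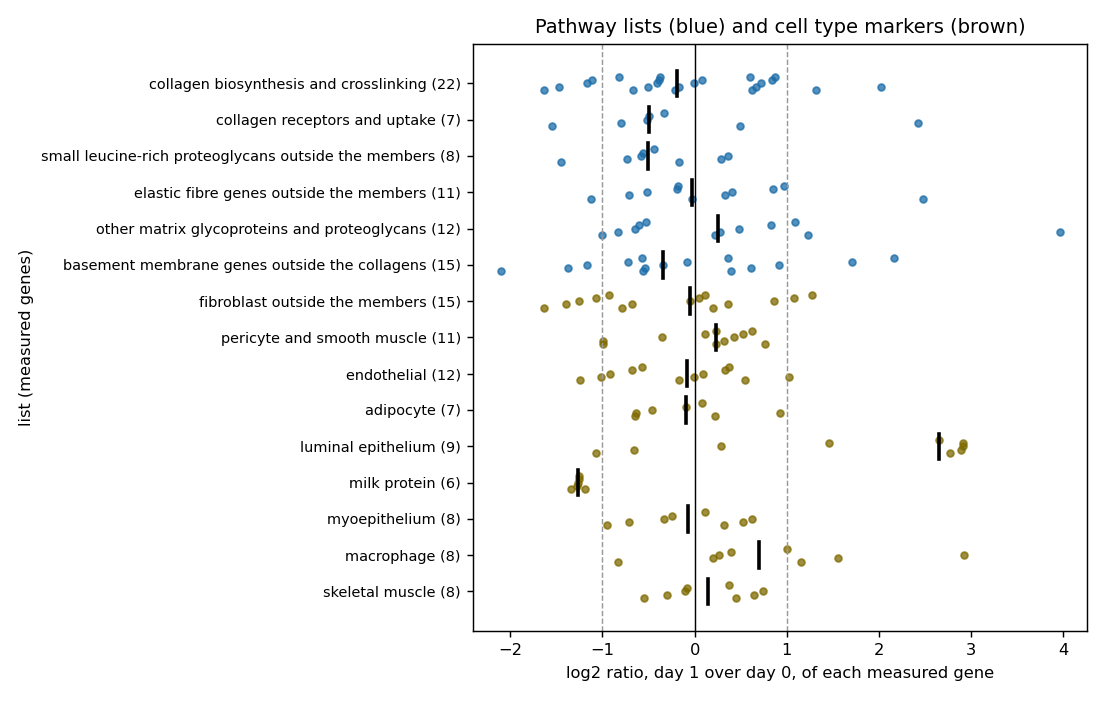
Log2 ratio (day 1 over day 0) of each measured gene of 6 pathway lists (blue) and 9 cell type marker lists (brown), none of them holding a gene of the 38, with black bars at the list medians. The medians of the luminal epithelial and macrophage markers lie furthest to the right and that of the milk protein genes furthest to the left. The fibroblast, endothelial and adipocyte medians lie near 0.

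Markers of the cells in the gland are given beside these results, since each cell type brings its own matrix. The tissue label held: luminal epithelial markers (9 of 9 measured) and milk protein genes (6 of 6) were bright on both arrays. Fibroblast markers outside the 38 genes (15 of 15 measured) had 2 at least 2-fold higher and 4 lower, a median log2 ratio of -0.05 and a summed signal of 10514 on day 1 and 11168 on day 0. Vim (2.42-fold) was higher, and Dpp4 (2.63-fold) and Clec3b (at least 3.11-fold) were lower. Pericyte and smooth muscle markers (11 of 11) had 0 in either direction, a median of 0.23 and sums of 25029 on day 1 and 21831 on day 0, with Tagln at 0.77 log2. Notch3 and Cspg4, with 300.4 and 99.9 on day 1 and 600.4 and 199.5 on day 0, were just under 2-fold lower. Members of both lists went both ways, with log2 ratios from -1.64 to 1.27 among the fibroblast markers. The part of these cells in the ratios of the matrix genes, Thy1 and Pdgfrb included, was not tested.

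Endothelial markers (12 of 12 measured) had 1 higher and 2 lower, a median of -0.09 and sums of 3738.1 on day 1 and 3861.1 on day 0, with Cldn5 higher (2.04-fold) and Robo4 (2.37-fold) and Kdr (2.02-fold) lower. Adipocyte markers (7 of 10, with 3 not analysed here) had 0 in either direction, a median of -0.10 and sums of 21460 on day 1 and 20125 on day 0, led by Lep (0.93 log2), Cidec (-0.64) and Pparg (-0.64). Myoepithelial markers (8 of 8) had 0 in either direction, a median of -0.07 and sums of 21983 on day 1 and 20576 on day 0, with Trp63 at -0.95 log2, Oxtr at -0.71 and Krt17 at 0.63. Skeletal muscle markers (8 of 8) had 0 in either direction, a median of 0.15 and sums of 18594 on day 1 and 17967 on day 0, with Tnni2 at 0.74, Myh1 at 0.65 and Ckm at -0.55. In these 4 lists the medians stayed within 0.15 log2 of 0. They are not the only listed cells that lie on a basement membrane. The median was 2.66 for luminal epithelial markers and 0.23 for pericyte and smooth muscle markers.

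Larger differences were in epithelium and macrophages. Luminal epithelial markers had 6 of 9 higher and 1 lower, a median of 2.66 and sums of 89137 on day 1 and 43955 on day 0. Krt19 was 7.55-fold, Krt8 7.53-fold and Cldn3 7.43-fold higher. They did not all go this way: Elf5 was 2.11-fold lower (-1.08), Ehf was at -0.65 log2 and Epcam at 0.29. Macrophage markers had 4 of 8 higher and 0 lower, with Itgam below the floor, a median of 0.70 and sums of 35645 on day 1 and 7962.9 on day 0, with most of the day 1 sum from Cd14 (7.60-fold higher), and Cd68 (2.94-fold) and Lyz2 (2.22-fold) were also higher. Adgre1 was lower, with 375.2 on day 1 and 665.6 on day 0 (-0.83), and Csf1r (0.40), Cd163 (at least 0.27) and Fcgr1 (0.20) were nearer 0. Milk protein genes had 0 of 6 higher and 6 lower, a median of -1.26 and sums of 216424 on day 1 and 520334 on day 0, with Csn2 (-1.34), Csn1s2a (-1.28) and Csn1s1 (-1.27) furthest from 0. Their signals were among the highest on each array, from 31909 to 40090 on day 1 and 76344 to 95984 on day 0, and saturation was not tested. Their log2 ratios, from -1.34 to -1.19, were close to the -1.16 of the hybridisation controls, and no value under a scaling on those controls was computed for them. The part of these cell types in the ratios of Col4a5, Col4a1 and Col9a1 was not tested.

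**Figure D5:**
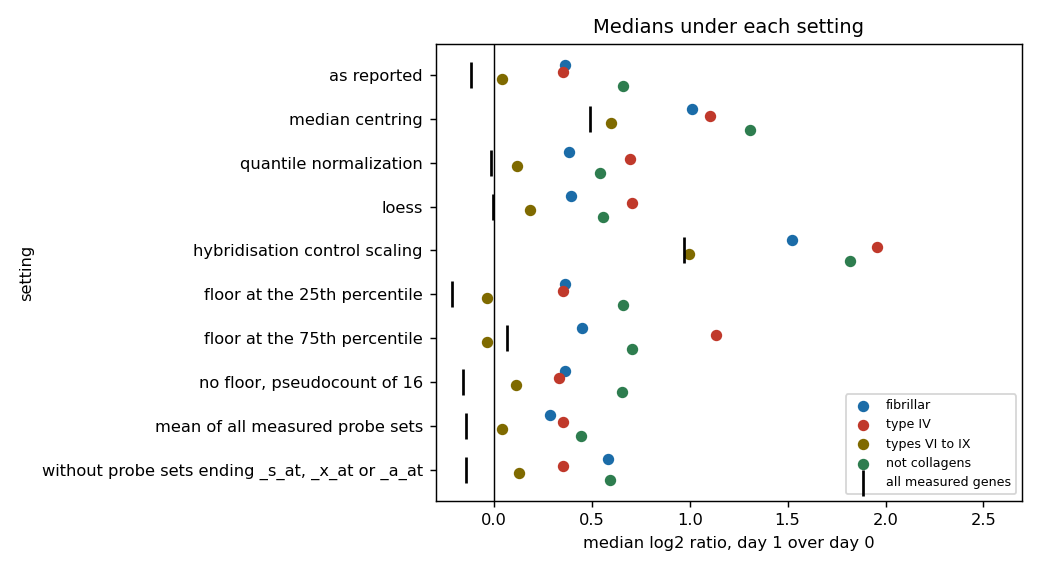
Median log2 ratio (day 1 over day 0) of each family as reported and under 9 other settings, with the median of all measured genes as a black bar. The fibrillar, type IV and non-collagen medians lie to the right of the bar in every setting, and the scaling moves families and bar together.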

How the data were processed

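Gene expression was measured on 2 Affymetrix arrays, 1 for RNA pooled from 5 mice on day 1 and 1 for day 0 of involution. The deposited values are probe set intensities on a linear scale, made by the authors with Microarray Suite 5.0, per the labels. Both arrays have a mean of 250 after 2% of probe sets are trimmed at each end, a scaling target the sources used here do not state. Of 45101 probe sets, 64 are controls, 34945 have a single gene symbol, 932 have several and 9160 are unnamed here. The last 2 groups were left out. Gene identifiers of 34741 probe sets were found in RefSeq GRCm38.p6, used for names and promoter windows.

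The brightest probe set (highest mean signal) stood for a gene, with a floor of 77.7 and log2 of day 1 over day 0. All members are named. Of each other list, the 3 genes with the largest absolute ratio are named. The members and lists were chosen with earlier results of these data known. With 1 array per day no test, SD or p-value between days is possible, and the number of arrays limits the precision. Alternatives were median centring, quantile normalization, loess (span 0.3), scaling on hybridisation controls below 50% of the highest signal, a floor at the 25th or at the 75th percentile, a pseudocount of 16 in place of a floor, averaging a gene's probe sets, leaving out probe sets named as shared between transcripts, and limits of 1.5-fold and 3-fold. Python 3.11.15, pandas 2.3.3 and statsmodels 0.14.6 were used. The code was also run on simulated arrays in which only bright genes were changed, by a set fold and with low added noise. That run does not cover dim genes or the error of real arrays, and it lends no support to single calls.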

Additional observations from a re-analysis of the deposited data

How the results depend on the processing

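At the limit of 2-fold, 8 genes were higher, against 10.4% of all measured genes. Most other settings gave 7 to 9, against 7.9% to 12.2% of all measured genes. Exceptions were 17 after median centring (28%), 26 under hybridisation control scaling (48.7%) and 5 with a floor at the 75th percentile (10.9%). At a limit of 1.5-fold 12 were higher (20.4%), and at 3-fold 2 (3.85%). With 1 gene lower (13.3% of all measured genes), most other settings and limits gave 1, against 2.28% to 27.2%. The exceptions were 5 with a floor at the 25th percentile (26%) and 3 with no floor and a pseudocount of 16 (23%). There, signals below the main floor enter. After median centring the medians were 1.01 for fibrillar collagens, 1.10 for type IV and 1.31 for the genes that are not collagens, with 0.49 for all measured genes. Under hybridisation control scaling they were 1.52, 1.96 and 1.82, with 1.00 for types VI to IX and 0.97 for all genes. The type IV median was 1.13 with a floor at the 75th percentile. No gene that was at least 2-fold different changed direction in a setting. No paired analysis was possible because each day has 1 array. Dim genes limit the result: 6 of the 35 measured genes were at the floor on 1 array.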
